A study of Mus musculus with 7 samples.

Results

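The unfolded protein response genes examined here are Hspa5, Atf4, Atf6, Xbp1, Ern1, Eif2ak3, Ddit3, Calr, Canx and Pdia4. They were taken by symbol from the gene identifiers of the 7 deposited tables, where each symbol marked 1 row, so that the set has 10 genes of the 50686 listed per library. All 10 passed the filter on low counts, and none lay on a sex chromosome or the mitochondrial genome. They were compared in Bodipy+ brain microglia sorted from male C57BL/6 mice, 4 aged 3 to 4 months (young, animals 14C, 18C, 23C and 29C) and 3 aged 21 to 22 months (old, animals 2posI, 3posI and 4posI). All mice had undergone transient occlusion of the middle cerebral artery 4 days earlier. They received no drug treatment beyond the anesthesia and analgesia of that surgery. The comparison is thus of age within ischemic mice, and no sham-operated mouse enters it. The cells were released from the forebrain with papain, sorted as CD11b+ and CD45+ and selected with Bodipy, a dye of neutral lipids, so they stand for the lipid droplet-rich fraction of 1 animal per library. Values are RSEM expected counts, given below as CPM, which are counts per 1000000 counts of a library after TMM scaling, and the deposited TPM, which are also per length. The ages were compared over 17501 genes in edgeR, by its quasi-likelihood test, with Benjamini-Hochberg adjustment and a threshold of 0.05 on the adjusted p.

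The unfolded protein response is the program by which a cell answers unfolded protein in the endoplasmic reticulum (ER). Hspa5 (BiP, GRP78), the main Hsp70 chaperone of the ER lumen, binds the lumenal side of the sensors PERK (Eif2ak3), IRE1 alpha (Ern1) and ATF6 (Atf6) and is released from them when unfolded protein gathers. PERK phosphorylates eIF2 alpha, which lowers general translation and favours translation of ATF4, itself an activator of Ddit3 (CHOP). IRE1 splices the Xbp1 mRNA, and ATF6 is cut in the Golgi to free a transcription factor, and both routes raise ER chaperones and folding enzymes such as Hspa5, Pdia4, Calr and Canx. In microglia this ER machinery also serves the folding of surface receptors and secreted proteins, and neutral lipid droplets bud from the ER membrane. The gene-level values used here hold the amount of each mRNA and neither the spliced form of Xbp1 nor any phosphorylation or cleavage of a sensor.

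Total expected counts were 36574083 to 53002386 per library, and each member had at least 193 counts in every library. Microglial markers such as P2ry12, Tmem119 and Cx3cr1 were expressed in all 7 libraries, with summed levels over 9 genes of 13180 to 21130 CPM in young mice, 14680 and 15880 CPM in old mice 4posI and 2posI, and 7426 CPM in old mouse 3posI. Of these markers, P2ry12, Siglech and Sall1 were also low in young mouse 23C, at 440, 125 and 59.5 CPM, against 341, 185 and 48.0 CPM in 3posI. In the other young mice they had 1147 to 1767, 457 to 695 and 112 to 159 CPM. Tmem119, Cx3cr1, Olfml3, Csf1r and Aif1 also had their lowest young value in 23C, at 1027, 1954, 1485, 3512 and 403 CPM. Of the 9 markers only Fcrls did not, at 4177 CPM in 23C. Library 3posI also had a sum of 2257 CPM over 8 monocyte and macrophage markers, against 64.95 to 183.6 CPM in young mice and 161.4 and 213.3 CPM in the other old mice, and 6 of these 8 markers were highest there. Of the B and plasma cell markers, which matter because plasma cells hold much ER, the sum was 51.3 to 212 CPM in young and 91.5 to 350.1 CPM in old mice, mostly Ighm, while Jchain reached 8.49 CPM and Igkc 45.1 CPM in 2posI. Log2 fold changes without 3posI are therefore also printed for Eif2ak3, Ern1, Atf6, Xbp1 and Pdia4. For the other members they are shown only in the plot of log2 fold changes with each library left out. Of the wider pathway genes described below, Slc7a11 has a value without 3posI, and Sparc and Hgsnat are named as changing sign. The other pathway genes have no separate value without 3posI. In such bulk libraries fewer cells of a type and less RNA per cell cannot be told apart.

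Promoter windows of RefSeq, on build GRCm38.p6 and reaching from 250 bases before to 50 bases after the annotated start, were found for 9 of the 10 genes, all except Atf6. They were searched on both strands for the ER stress response element (ERSE), the site of ATF6 and XBP1 that is made of CCAAT, 9 further bases and CCACG. This motif, chosen after the expression values were seen, was present in 37 of the 27025 genes with a window (0.137%) and in 3 of the 9 members, namely Hspa5, Calr and Canx. The 3 sites are shown because they set these chaperones apart from the other members by sequence. Each is written 5′ to 3′ in the direction of CCAAT to CCACG, with the 19 bases of the element in capitals and 5 bases on each side.
Hspa5: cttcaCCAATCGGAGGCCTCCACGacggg
Calr: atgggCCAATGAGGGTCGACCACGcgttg
Canx: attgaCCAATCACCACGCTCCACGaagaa
The Hspa5 site is at chr2:34772020-34772048 on the plus strand, the Calr site at chr8:84847070-84847098 on the plus strand and the Canx site at chr11:50325795-50325823 on the minus strand. The element began 65 bases before the RefSeq start of Hspa5, which itself lies 120 bases inside the GENCODE model of that gene, and 145 bases before the start of Canx, in both cases on the strand of the gene. In Calr it lay on the opposite strand, 162 to 144 bases before the start. The bases between CCAAT and CCACG differed among the 3 genes, and 6 or 7 of these 9 bases were G or C.

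The windows of Eif2ak3 and Pdia4 held no ERSE. They are shown because these were the members whose levels did not overlap between ages, as given below. The 250 bases before the start are printed 5′ to 3′ on the strand of the gene, with each CCAAT box in either orientation in capitals, at chr6:70844265-70844514 (plus strand) for Eif2ak3 and chr6:47813513-47813762 (minus strand) for Pdia4.
Eif2ak3: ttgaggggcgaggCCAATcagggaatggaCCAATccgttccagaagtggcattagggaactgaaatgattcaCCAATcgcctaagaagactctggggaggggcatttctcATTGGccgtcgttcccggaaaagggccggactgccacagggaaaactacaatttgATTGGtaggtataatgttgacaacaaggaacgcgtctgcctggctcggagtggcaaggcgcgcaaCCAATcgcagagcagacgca
Pdia4: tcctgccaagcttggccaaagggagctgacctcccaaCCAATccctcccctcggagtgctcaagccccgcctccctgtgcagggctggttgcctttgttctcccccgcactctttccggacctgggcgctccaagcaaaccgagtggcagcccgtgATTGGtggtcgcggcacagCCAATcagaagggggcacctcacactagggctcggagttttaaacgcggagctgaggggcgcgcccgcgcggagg
Eif2ak3 had 6 CCAAT boxes and Pdia4 had 3, while 41.1% of all genes with a window had at least 1. Members that overlapped between ages held such boxes too, with 4 in Hspa5, 3 in Canx, 2 each in Calr and Atf4 and 1 in Ddit3. Ern1 and Xbp1 had 0. None of the 9 windows held the letters TGACGTGG of the unfolded protein response element, found in 0.714% of genes, or TTGCATCA of a CHOP-ATF composite site, found in 1.03%. The first of these holds CGTGG, the reverse complement of the CCACG in the ERSE. A match or its lack is a description of the letters in the window only.

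Of the 10 genes, 0 passed the adjusted threshold in edgeR's test, against 0.811% of all genes tested. In limma-voom 0 passed as well, and in DESeq2 2 passed, Eif2ak3 and Pdia4, both lower in old mice, where DESeq2 called 8.02% of all genes. The same 2 genes were the ones with an unadjusted p under 0.05 in edgeR, a share of 20% that is close to the 19.0% of all genes. They were also the only members whose 3 old and 4 young libraries did not overlap. Both lay lower in old mice, which was so for 9.09% of all genes, and 17.8% of all genes did not overlap in either direction. By sign alone, 6 members were higher and 4 lower in old mice, and their median was 0.10 on the log2 scale, against -0.01 over all genes tested.

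**Figure D1:**
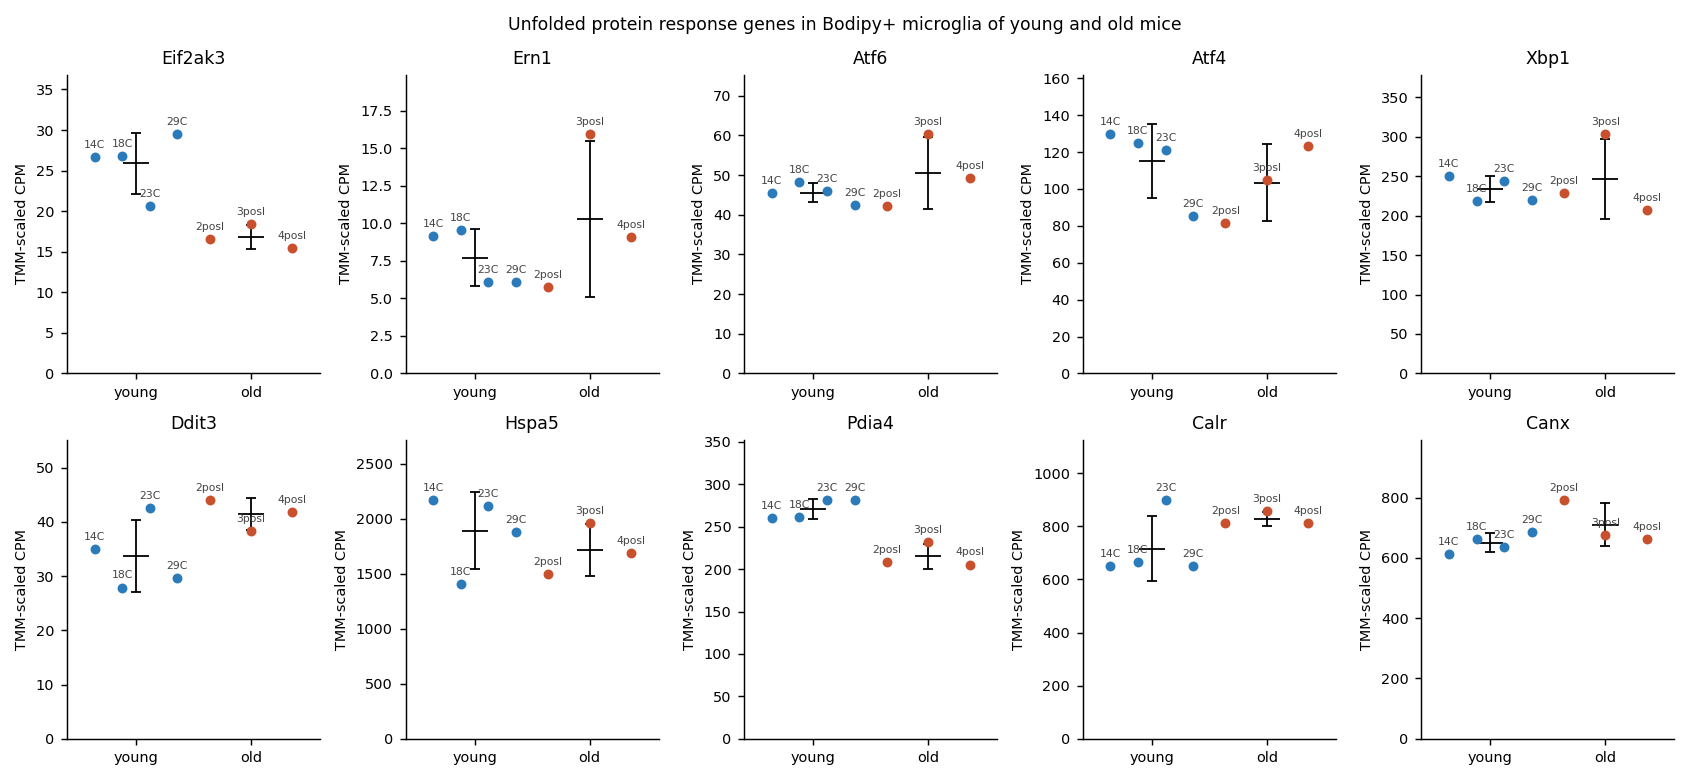
TMM-scaled CPM of each of the 10 genes in every library, with young mice in blue, old mice in orange, the animal code above each point and the black bars giving mean ± SD (n = 4 young, n = 3 old). All axes start at 0. The ages are apart in Eif2ak3 and Pdia4, where every old library is lower, and overlap in the other 8 genes, with 3posI the highest library for Ern1, Atf6 and Xbp1.

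Among the 3 sensors, Eif2ak3 was lower in old mice, Ern1 was low and variable, and Atf6 was nearly level. Eif2ak3 (chr6:70844515-70905245, plus strand, GRCm38), which encodes PERK, had 26.7, 26.8, 20.6 and 29.5 CPM in young mice 14C, 18C, 23C and 29C and 16.5, 18.4 and 15.5 CPM in old mice 2posI, 3posI and 4posI. The highest old library, 3posI, was below the lowest young library, 23C. The means were 25.9 ± 3.76 CPM (SD, n = 4) in young and 16.8 ± 1.45 CPM (SD, n = 3) in old mice, so that old mice had 64.9% of the young level. The log2 fold change was -0.62 ± 0.15 (SE), with a 95% interval of -0.97 to -0.27 and an adjusted p of 0.0968 in edgeR. In DESeq2 the adjusted p was 0.0101, and the exact two-sided permutation test over the 35 arrangements of the libraries gave p = 0.0571. Without any 1 library the log2 fold change stayed between -0.72 and -0.56, and it was -0.69 without 3posI. Part of this gene, 485 of its 6026 exon bases, is shared with Gm43292 on the opposite strand, and the libraries are not stranded. Gm43292 had at most 3.34% of the Eif2ak3 count in any library, and with both counts summed the log2 fold change was -0.61.

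Ern1 (chr11:106394650-106487852, minus strand), the gene of IRE1 alpha, had the fewest counts of the members. It had 9.16, 9.53, 6.06 and 6.11 CPM in young mice 14C, 18C, 23C and 29C. In old mice it had 5.75 CPM in 2posI, 15.9 CPM in 3posI and 9.11 CPM in 4posI. Old mice held both the lowest and the highest library, and the coefficient of variation was 50.5% in old against 24.5% in young mice. Its log2 fold change of 0.41 ± 0.34 (SE) had an adjusted p of 0.545 in edgeR and an interval from -0.37 to 1.19. Without 3posI it was -0.05, the opposite sign. Atf6 (chr1:170704674-170867771, minus strand), the cleaved sensor, had 45.6, 48.1, 46.0 and 42.5 CPM in young mice, in the same order of animals. The old libraries had 42.3 CPM in 2posI, 60.3 CPM in 3posI and 49.3 CPM in 4posI. The young values stood close together, with a coefficient of variation of 5.12%, and all lay inside the range of the old mice. For Atf6 the log2 fold change was 0.15 ± 0.14 (SE), with an adjusted p of 0.578 in edgeR and an interval of -0.16 to 0.46, and 0.01 without 3posI.

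Of the transcription factors, none passed the test, and Ddit3 was the nearest to a separation of the ages. Atf4 (chr15:80255184-80257541, plus strand), the factor translated when eIF2 alpha is phosphorylated, had 129.6, 124.8 and 121 CPM in young mice 14C, 18C and 23C but 85.6 CPM in 29C. The old mice had 81.7 CPM in 2posI, 104.7 CPM in 3posI and 123 CPM in 4posI. Both ages thus spanned nearly the same range. The log2 fold change was -0.16 ± 0.19 (SE), with an adjusted p of 0.688 in edgeR and an interval of -0.59 to 0.27. Xbp1 (chr11:5520659-5525893, plus strand), the mRNA that IRE1 splices, had 250.5, 219, 244 and 219 CPM in young mice 14C, 18C, 23C and 29C. Old mice had 229 CPM in 2posI, 303 CPM in 3posI and 207 CPM in 4posI, with 3posI the highest and 4posI the lowest of all 7. Its log2 fold change was 0.08 ± 0.16 (SE), with an adjusted p of 0.820 in edgeR and an interval of -0.27 to 0.43. Without 3posI it was -0.10.

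Ddit3 (chr10:127290774-127296288, plus strand), which encodes the proapoptotic factor CHOP, had 34.97, 27.9, 42.6 and 29.6 CPM in young mice 14C, 18C, 23C and 29C. In old mice it had 44.1 CPM in 2posI, 38.4 CPM in 3posI and 41.9 CPM in 4posI. The old libraries were above 3 of the 4 young libraries, and young mouse 23C lay among them. For Ddit3 the log2 fold change was 0.30 ± 0.16 (SE), with an adjusted p of 0.356 in edgeR, an interval of -0.07 to 0.66 and an exact permutation p of 0.143. Ddit3 shares 68 exon bases with Mars on the opposite strand, and its expected count was fractional in 7 of 7 libraries, whereas the sum of Ddit3 and Mars was whole within 0.015 in 7 of 7. RSEM had thus divided reads between these genes, and Mars had 2034 to 3395 counts, up to 224.8% of Ddit3, so the level of Ddit3 depends on that division.

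Of the chaperones and folding enzymes, Hspa5 and Pdia4 had lower means in old mice. Hspa5 (chr2:34771970-34777547, plus strand) had 2173, 1406, 2112 and 1876 CPM in young mice 14C, 18C, 23C and 29C. Old mice had 1494 CPM in 2posI, 1961 CPM in 3posI and 1690 CPM in 4posI, all inside the young range. BiP mRNA alone made up 0.137% to 0.208% of the counts of a library. On the log2 scale Hspa5 differed by -0.14 ± 0.20 (SE), with an adjusted p of 0.741 in edgeR. The interval of -0.59 to 0.31 leaves room for a change of either sign. Pdia4 (chr6:47796141-47813430, minus strand), the protein disulfide isomerase ERp72, had 260.1, 262, 281 and 282 CPM in young mice 14C, 18C, 23C and 29C and 208, 232 and 205 CPM in old mice 2posI, 3posI and 4posI. The ages did not overlap, with a gap between 232 CPM in 3posI and 260.1 CPM in 14C. The means were 271 ± 11.8 CPM (SD, n = 4) and 215 ± 14.5 CPM (SD, n = 3), or 79.3% of the young level in old mice. The log2 fold change was -0.34 ± 0.11 (SE), with a 95% interval of -0.60 to -0.07 and an adjusted p of 0.172 in edgeR. In DESeq2 the adjusted p was 0.0384. The exact permutation test gave p = 0.0286, the smallest value that 3 against 4 libraries allow, unadjusted for the 10 genes. Leaving out each library in turn gave -0.39 to -0.31, with -0.39 without 3posI.

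Calr and Canx, the soluble and the membrane-bound lectin chaperone that hold glycoproteins until they are folded, had slightly higher means in old mice without passing the test. Calr (chr8:84841850-84846934, minus strand) had 649.5, 665 and 649 CPM in young mice 14C, 18C and 29C and 900.5 CPM in 23C. The old libraries stood close together, at 811 CPM in 2posI, 857 CPM in 3posI and 812 CPM in 4posI. They were above 3 young libraries and below 23C, and the coefficient of variation was 3.18% in old against 17.2% in young mice. The log2 fold change was 0.21 ± 0.16 (SE), with an adjusted p of 0.515 in edgeR, an interval of -0.16 to 0.57, and 0.34 without 23C. Canx (chr11:50293961-50325673, minus strand) had 614, 662, 638 and 686 CPM in young mice 14C, 18C, 23C and 29C. In old mice it had 793 CPM in 2posI, 676 CPM in 3posI and 662 CPM in 4posI, so that 2posI alone lay above the young range. For Canx the log2 fold change was 0.13 ± 0.13 (SE), with an adjusted p of 0.636 in edgeR and an interval of -0.17 to 0.43. It was 0.04 without 2posI. The 3 members with an ERSE, Hspa5, Calr and Canx, thus did not share a direction.

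**Figure D2:**
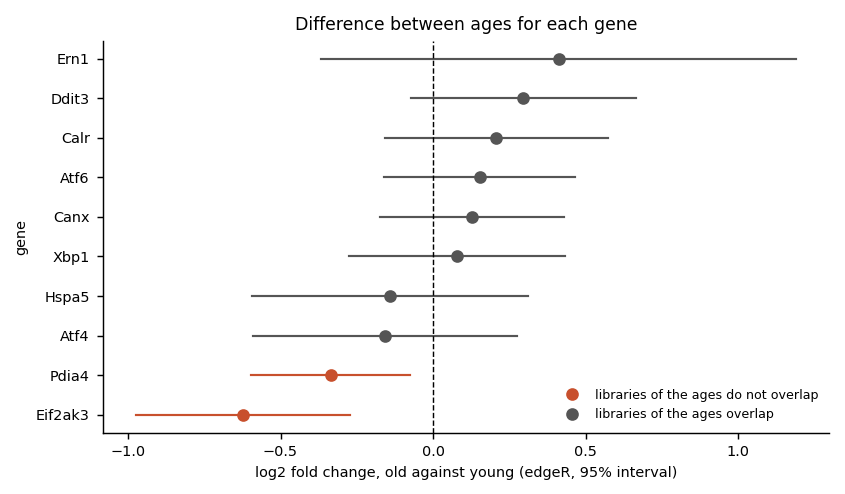
Log2 fold change of each gene, old against young, from edgeR (points) with its 95% interval (lines). Orange marks the genes whose libraries do not overlap between ages. The intervals of Eif2ak3 (-0.97 to -0.27) and Pdia4 (-0.60 to -0.07) lie below 0 before adjustment, and the other 8 include 0.

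Per length, the order of the 10 genes was nearly the same in both ages. In TPM, Hspa5 was the highest in every library, at 992 to 1496 TPM in young and 846 to 1147 TPM in old mice, above 99.6% of the genes tested in young mice. Calr followed with 413 to 642 TPM in young and 518.5 to 597 TPM in old mice, and then Canx with 229 to 254 and 228 to 260.1 TPM. In young mice Xbp1 (149 to 182.5 TPM) and Pdia4 (160.4 to 177 TPM) could not be ordered because their libraries overlapped. In old mice Xbp1 (139 to 194 TPM) lay above Pdia4 (117 to 129 TPM) without overlap. Atf4 (66.8 to 108 TPM in young and 59.7 to 105 TPM in old mice) and Ddit3 (46.5 to 72.7 and 60.0 to 71.8 TPM) overlapped each other in both ages. The 3 sensors were the least abundant members. In young mice Eif2ak3 (7.04 to 10.6 TPM) overlapped Atf6 (7.87 to 9.76 TPM), and both were above Ern1 (2.54 to 4.96 TPM). In old mice Eif2ak3 (4.68 to 5.53 TPM) was below Atf6 (7.25 to 10.7 TPM) without overlap, and overlapped Ern1 (1.39 to 7.48 TPM). TPM depends on the transcript lengths that RSEM assigned in each library, and for Eif2ak3 the mean length was 3928 bases in young and 4276 bases in old mice, and for Ern1 2830 and 3740 bases. On log2 TPM with a pseudocount of 0.1, where the median of all genes was -0.13, Hspa5 was at -0.31, Atf4 at -0.25, Canx and Atf6 at 0.034, Xbp1 at -0.071 and Ern1 at -0.12, and none passed the test in limma.

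**Figure D3:**
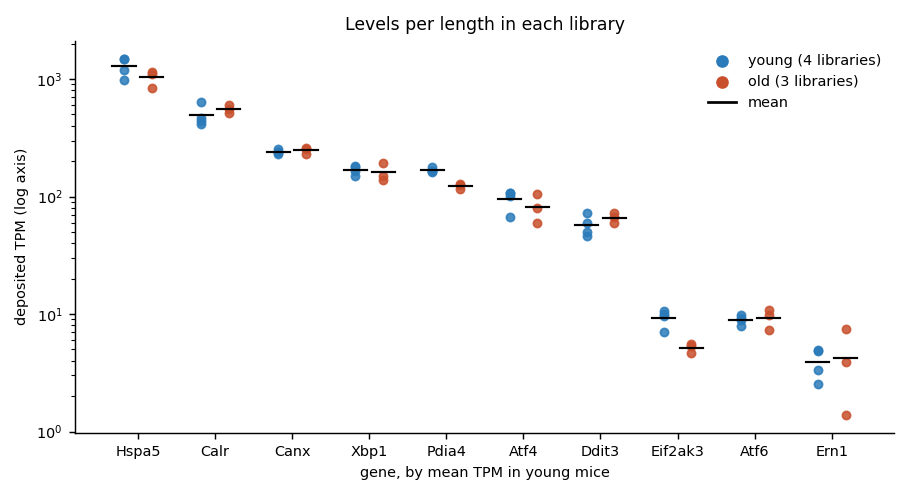
Deposited TPM of the 10 genes in each library on a log axis, with the genes ordered by their mean in young mice (blue, 4 libraries) and old mice beside them (orange, 3 libraries). Black lines are means. Hspa5, Calr and Canx are the highest in both ages, and Eif2ak3 in old mice is below Atf6, which it overlaps in young mice.

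Library 3posI was the highest of the 7 for Ern1, Atf6 and Xbp1, and for no member the lowest. Without it, the signs of Ern1 and Xbp1 turned, 4 instead of 6 members were higher in old mice, and Eif2ak3 and Pdia4 were lower by more, at -0.69 and -0.39. The higher monocyte and lower microglial marker sums of 3posI moved with these values, and their part in the results was not tested. Leaving out any other library turned no sign, and no member passed the threshold in edgeR without any 1 library.

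**Figure D4:**
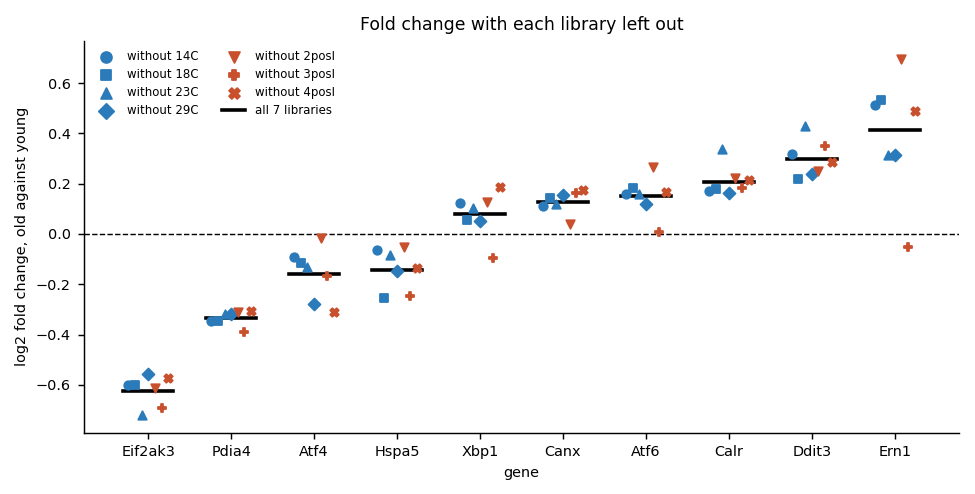
Log2 fold change (old against young, edgeR) of each gene with all 7 libraries (black line) and with each library left out (blue, a young library left out, and orange, an old one). Without 3posI, Ern1 (-0.05) and Xbp1 (-0.10) change sign and Atf6 falls to 0.01, while Eif2ak3 (-0.72 to -0.56) and Pdia4 (-0.39 to -0.31) stay below 0 throughout.

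The wider pathway was described with 8 lists of 164 genes, of which 161 were tested. The lists were chosen with earlier results of these data known, so their shares beside those of all genes are description and no test of the pathway. Only Nploc4 passed the threshold in edgeR, and it was higher in old mice. In limma-voom each list had the same number of calls as in edgeR. Over the 161 genes, 82 were higher and 79 lower in old mice, with a median log2 fold change of 0.02, and 26 were higher and 12 lower without overlap between ages. These 38 are 23.6% of the 161, against 17.8% of all genes, of which 8.71% were higher and 9.09% lower. At an unadjusted p under 0.05, 24 were higher and 12 lower, or 22.4%, against 19.0% of all genes, 10.2% higher and 8.82% lower. The counts of each list below stand beside the same shares and the 8.02% that DESeq2 called over all genes.

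Of the 30 further ER chaperones and folding enzymes, 0 passed, with 14 higher and 16 lower in old mice (median -0.0049). At an unadjusted p under 0.05, 4 were higher and 3 lower, and DESeq2 called 2. The 3 with the smallest p were Manf, Creld2 and Dnajc3. Manf, a secreted ER stress protein that binds BiP, had 123, 130.5, 159 and 146 CPM in young mice 14C, 18C, 23C and 29C and 196, 263 and 198 CPM in old mice 2posI, 3posI and 4posI. All old libraries lay above the young ones, and the log2 fold change was 0.65 ± 0.15 (SE), with an adjusted p of 0.0875 in edgeR and 0.00575 in DESeq2. Creld2, also a secreted ER stress protein, had 65.7 to 88.4 CPM in young and 93.2 to 136 CPM in old mice, a log2 fold change of 0.56 with an adjusted p of 0.130 in edgeR and 0.0359 in DESeq2. Dnajc3, the co-chaperone P58IPK that restrains PERK, had a log2 fold change of 0.38 with an adjusted p of 0.186 in edgeR. For these genes 3posI was the highest library, and Manf was 0.50 to 0.72 and Creld2 0.39 to 0.67 when each library was left out. Hsp90b1, the ER form of HSP90 chosen here after its values were seen, had 797 to 910.5 CPM in young and 942 to 994 CPM in old mice (0.17 on the log2 scale, adjusted p of 0.512 in edgeR). The disulfide isomerases Pdia3, Pdia6 and P4hb, likewise chosen after their values were seen, overlapped between ages, with log2 fold changes of 0.10, 0.22 and -0.0018, unlike Pdia4.

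Of the 19 genes of the calnexin cycle and N-glycosylation, 0 passed, with 8 higher and 11 lower (median -0.04), and DESeq2 called 2. Both genes with an unadjusted p under 0.05 act on the first sugars trimmed from a new glycan. Mogs, glucosidase I, had 6.61 to 8.95 CPM in young and 11.8 to 13.7 CPM in old mice, a log2 fold change of 0.65 with an adjusted p of 0.10 in edgeR. Prkcsh, the beta subunit of glucosidase II, had 89.2 to 101 CPM in young and 70.7 to 78.7 CPM in old mice, a log2 fold change of -0.34 with an adjusted p of 0.142. They lay on opposite sides, each without overlap between ages. Ostc, a subunit of the oligosaccharyltransferase, had a log2 fold change of 0.30 with an adjusted p of 0.299.

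Of the 15 tested genes of the ER translocon and signal peptidase, 13 were higher and 2 lower in old mice, with a median log2 fold change of 0.10. The 13 are 86.7%, against 48.8% of all genes that were higher. In mean TPM, Ssr3, Spcs3, Sec11a, Srprb and Tram1 were lower in old mice, and the rest of the list was higher. In edgeR 0 passed and 1 had an unadjusted p under 0.05, Sec63, which DESeq2 also called. Sec63, which recruits BiP to the translocon, had 14.5 to 21.8 CPM in young and 30.8 to 35.01 CPM in old mice. The ages did not overlap, and the log2 fold change was 0.74 ± 0.16 (SE), with an adjusted p of 0.0740 in edgeR. With RSEM's effective length as an offset it was 1.03 and passed, with an adjusted p of 0.0431. Sec61b, a subunit of the channel, and Sec11c, a catalytic subunit of the signal peptidase, had log2 fold changes of 0.40 and 0.23 and adjusted p of 0.304 and 0.355 in edgeR. Sec61b had 137 CPM in 3posI, against 88.3 CPM in 2posI, 78.6 CPM in 4posI and 67.8 to 82.5 CPM in young mice. Its log2 fold change was 0.12 to 0.55 when each library was left out.

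Among 25 genes of ER-associated degradation, 1 passed, with 11 higher and 14 lower (median -0.02), and DESeq2 called 4. At an unadjusted p under 0.05 in edgeR, 4 were higher and 2 lower, against 10.2% and 8.82% of all genes. Without overlap between ages, 3 were higher and 4 lower, against 8.71% and 9.09% of all genes. Nploc4, the partner of Ufd1 on the p97 segregase that pulls ubiquitinated proteins out of the ER, had 17.1, 14.3, 14.2 and 15.9 CPM in young mice 14C, 18C, 23C and 29C. In old mice it had 28.3 CPM in 2posI, 32.9 CPM in 3posI and 29.0 CPM in 4posI. For Nploc4 the log2 fold change was 0.97 ± 0.13 (SE), with an adjusted p of 0.0250 in edgeR. It passed in 2 of the 7 fits with 1 library left out, with values of 0.90 to 1.03. Over all genes those fits called 1 to 159, against 142 with all 7 libraries. On log2 TPM the value of Nploc4 was 0.79 with an adjusted p of 0.0865 in limma. Ubxn4, which tethers p97 to the ER, and Selenos, a selenoprotein of the same complex, had log2 fold changes of 0.52 and 0.50 with adjusted p of 0.0977 and 0.124 in edgeR. On log2 TPM the value of Ubxn4 was 0.21 with an adjusted p of 0.475 in limma, and its ages overlapped in TPM (45.5 to 56.8 in young and 46.6 to 68.4 TPM in old mice). Edem1, a mannosidase-like factor chosen after its values were seen, was lower in old mice, with 380 to 622 CPM in young and 301 to 378 CPM in old mice, and an adjusted p of 0.236. Os9, likewise chosen after its values were seen, had 271 to 322 CPM in young and 224 to 231 CPM in old mice, without overlap. Its log2 fold change was -0.40, with an adjusted p of 0.132 in edgeR and 0.00694 in DESeq2. Sel1l (-0.26) and Derl1 (-0.15) were lower without overlap as well.

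Downstream of PERK and ATF4, 0 of 32 targets passed, with 16 higher and 16 lower (median 0.02). At an unadjusted p under 0.05, 4 were higher and 1 lower, and DESeq2 called 4. Psat1, a serine biosynthesis enzyme induced by ATF4, had 163 to 225 CPM in young and 100.1 to 135 CPM in old mice, a log2 fold change of -0.68 with an adjusted p of 0.0992 in edgeR. In the opposite direction, Eif4ebp1, the inhibitor of the cap-binding protein eIF4E, had a log2 fold change of 0.58 with an adjusted p of 0.101, and Cebpg, a dimer partner of ATF4, one of 0.48 with an adjusted p of 0.130. On log2 TPM the value of Cebpg was only 0.051 with an adjusted p of 0.878 in limma, and its TPM overlapped between ages, at 29.0 to 33.0 TPM in young and 26.1 to 39.2 TPM in old mice. In CPM 7 of the 32 targets did not overlap, 6 higher and 1 lower, against 8.71% and 9.09% of all genes. The genes that follow were chosen after their values were seen. Slc7a11, the cystine and glutamate exchanger, was among the 6, with 2.69 to 4.59 CPM in young and 5.10 to 15.2 CPM in old mice. Slc7a11 differed by 1.28 on the log2 scale, with an adjusted p of 0.155 in edgeR and 0.0332 in DESeq2. The difference was 0.59 without 3posI, the highest library, and 0.36 on log2 TPM, where the ages overlapped. Mthfd2, a mitochondrial folate enzyme, was also higher, with 21.5 to 25.1 CPM in young and 25.8 to 49.3 CPM in old mice and an adjusted p of 0.261 in edgeR, but overlapped in TPM. Trib3, Ppp1r15a and Atf3 overlapped between ages. Trib3 had 1.99 to 6.27 CPM in young and 2.56 to 4.71 CPM in old mice. Ppp1r15a (GADD34), which reverses eIF2 alpha phosphorylation, had 447 to 812 CPM in young and 285 to 631 CPM in old mice. Atf3, a stress-induced repressor, had 765 to 1162 CPM in young and 453.5 to 1146 CPM in old mice.

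A list of 13 genes held the other eIF2 kinases, the exchange factor eIF2B, the eIF2 subunits Eif2s1 and Eif2s2, and Ppp1r15b, Nck1 and Dnajc24. Of the 13, 0 passed, with 8 higher and 5 lower (median 0.11), and in DESeq2 0 passed as well. At an unadjusted p under 0.05, 2 were higher and 1 lower. Eif2b3, a subunit of eIF2B, and Eif2ak2 (PKR), the eIF2 kinase that senses double-stranded RNA, had log2 fold changes of 0.41 and 0.44, with adjusted p of 0.213 and 0.235 in edgeR. PKR mRNA had 27.0 to 43.1 CPM in young and 44.1 to 48.3 CPM in old mice, without overlap. In TPM the ages overlapped (15.8 to 24.5 in young and 17.6 to 24.7 TPM in old mice), and on log2 TPM with a pseudocount of 0.1 the log2 fold change of Eif2ak2 was 0.039 with an adjusted p of 0.934 in limma. The mean length RSEM assigned to it was 2470 bases in young and 3105 bases in old mice. Nck1, an adaptor of eIF2 dephosphorylation, had a log2 fold change of -0.31 with an adjusted p of 0.233.

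Of 21 partners of the sensors and further ER stress transcription factors, 0 passed, with 10 higher and 11 lower (median -0.0023), and 10 had an unadjusted p under 0.05, 7 of them higher, while DESeq2 called 5. The 10 are 47.6% of the list, against 19.0% of all genes, and DESeq2 called 8.02% of all genes. Because the list was chosen with earlier results of these data known, this share cannot be read as a result about the pathway. Mbtps1, the site-1 protease that cuts ATF6, had 69.5 to 73.9 CPM in young and 48.5 to 56.8 CPM in old mice. It differed by -0.43 ± 0.10 (SE) on the log2 scale, with an adjusted p of 0.0923 in edgeR. The ages did not overlap. With the effective length as an offset the log2 fold change of Mbtps1 was -0.13 with an adjusted p of 0.580, and on log2 TPM it was -0.24, while its mean assigned length was 4026 bases in young and 3319 bases in old mice. Atf6b, the paralog of Atf6 and chosen after its values were seen, was lower without overlap as well, with 80.0 to 102 CPM in young and 56.9 to 74.6 CPM in old mice and an adjusted p of 0.140, whereas Atf6 itself overlapped. Map3k5 (ASK1), a kinase activated through IRE1 and TRAF2, had 7.71 to 14.2 CPM in young and 16.9 to 20.6 CPM in old mice, a log2 fold change of 0.83 with an adjusted p of 0.0973, and 0.54 on log2 TPM with a pseudocount of 1. Bax, which binds IRE1 and permeabilises mitochondria, had a log2 fold change of 0.53 with an adjusted p of 0.123. Of 6 known substrates of IRE1-dependent decay, 0 passed, with 2 higher and 4 lower (median -0.60). At an unadjusted p under 0.05, 1 was higher and 1 lower, and DESeq2 called 2. Bloc1s1, the best known of them, had 40.9 to 47.4 CPM in young and 49.4 to 62.8 CPM in old mice, a log2 fold change of 0.43 with an adjusted p of 0.130. It shares 720 of its 1288 exon bases with Rdh5 on the same strand, and its expected count was whole in 0 of 7 libraries. Rdh5 had at most 13.3% of the Bloc1s1 count. The sum of Bloc1s1 and Rdh5 was whole within 0.015 in only 2 of 7 libraries, so reads were not divided between these 2 genes alone. The level of Bloc1s1 depends on how RSEM divided its reads. The other named decay substrates, Hgsnat (0.11) and Sparc (-0.20), overlapped between ages and changed sign without 3posI. The low median of this list rests on Scara3, Pdgfrb and Col6a1, which had few counts and were chosen after their values were seen. In young mice they had 0.559 to 2.37, 1.12 to 7.12 and 0.627 to 3.12 CPM. In old mice they had 0.230 to 1.22, 0.410 to 1.97 and 0 to 0.518 CPM. Young mouse 23C was the highest library for each.

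**Figure D5:**
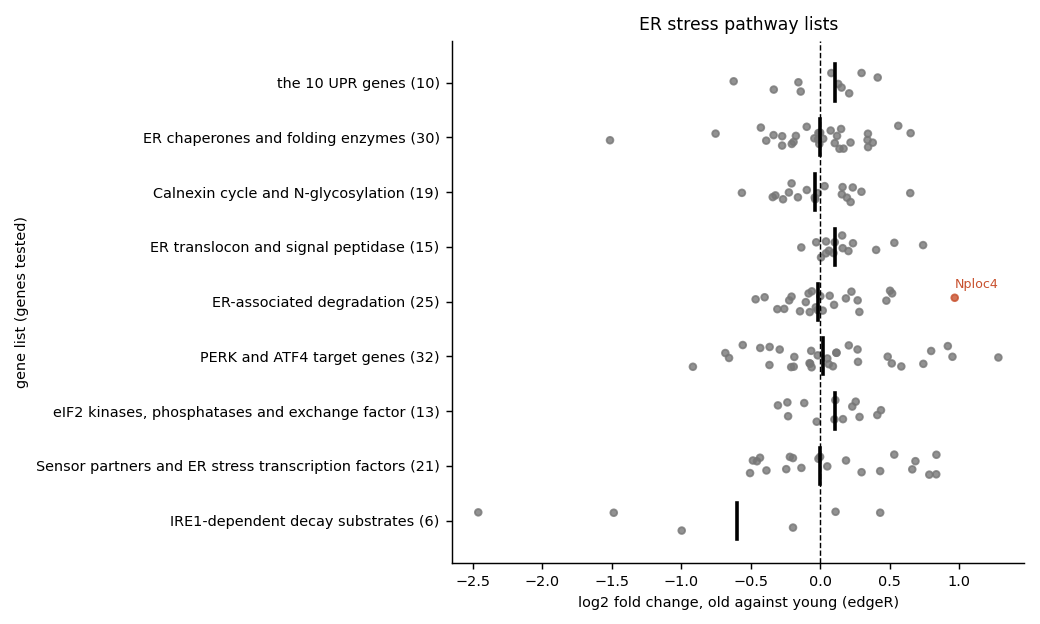
Log2 fold change (old against young, edgeR) of every tested gene in the set of 10 and in the 8 pathway lists, with the number tested in brackets and a black line at each median. The gene past the adjusted threshold, Nploc4 (0.97), is orange. The medians of the lists other than the 6 decay substrates lie between -0.04 and 0.11. That of the decay substrates rests on genes of few counts.

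Genes with an ERSE lay on both sides. Of the 37 genes with the element, 19 were tested, with 10 higher and 9 lower (median 0.11), and 1 passed in edgeR, Hnrnpa3, an RNA-binding protein outside the lists (0.78, adjusted p of 0.0280). The 10 of them that are members or in a list, among them Creld2, Dnajc3, Hsp90b1 and Pdia6, had 6 higher and 4 lower, with a median of 0.15. Of these 10, 3 were higher without overlap between ages, namely Creld2, Dnajc3 and Hsp90b1, against 8.71% of all genes. In TPM, Creld2 and Hsp90b1 overlapped between ages. Both the motif and the lists were chosen with values of these data known, so these counts are description only.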

How the data were processed

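RNA of Bodipy+ microglia (4 young and 3 old male mice) was profiled by Smart-seq2, a non-stranded low-input method without molecular identifiers, so p-values cover the spread between single animals and PCR copies are counted as reads. The labels name a PureLink kit for RNA extraction and the study's methods PicoPure. The authors checked reads with FastQC 0.11.5, trimmed them (skewer), aligned them to GRCm38 (STAR) and counted GENCODE m15 genes (RSEM). For STAR and RSEM no version is given in the sources used. The authors deposited expected counts, which are not normalized, and TPM and FPKM, which are scaled within a library. FPKM was not used.

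Expected counts were rounded. After the study's methods, 18112 genes exceeded a count of 10 in 1 or more libraries, and the 611 on X, Y and M among them were removed. Coordinates came from GENCODE vM21, which lacks 224 of the 50686 identifiers. In R 4.3.3, edgeR 4.0.16 gave TMM factors (0.952 to 1.05) and the quasi-likelihood test, with age as the only term because the labels carry no batch. An SE is the absolute log2 fold change divided by the square root of F. Alternatives were limma-voom and limma on log2 TPM with pseudocounts of 0.1 and 1 (limma 3.58.1), DESeq2 1.42.0, RLE and upper-quartile factors, other filters, an effective-length offset, removal of a gene length trend (lowess span 0.3), and each library left out. The fits were tested on simulated counts. The sum of Eif2ak3 and Gm43292 was added after the data were seen.

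The members and gene lists were chosen with earlier results of these data known. List genes named are those past the threshold and, per list, the 3 of lowest p among genes with a mean of at least 5 CPM. Srp54a (2 identifiers), Stc2 and Ern2 (low counts) were not tested. 1 microglial marker of the list was left out of the marker sum and is not reported here.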

Additional observations from a re-analysis of the deposited data

Results flagged for a closer look

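Among the young mice, each of 34 named genes was examined for 1 library far from the other 3, by Dixon's ratio of the gap to the range against the critical value for 4 samples. Calr stood apart in 23C, with 900.5 CPM against 649 to 665 CPM in the others and a ratio of 0.934. Among the young mice, library 23C also had the lowest value of every microglial marker in the sum except Fcrls. A link of these markers to Calr was not tested. Bloc1s1 stood apart in 29C, with 47.4 CPM against 40.9 to 41.8 CPM and a ratio of 0.856. Chance flags about 1 in 20 groups, or 1.7 of the 34, so these 2 are about as many as chance gives.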

How the results depend on the processing

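The number of members past the threshold was 0 in every fit except DESeq2, which called 2. Members higher in old mice numbered 4 to 6 in all alternatives. Over all genes, calls numbered 1404 with DESeq2, 288 without the filter, 71 and 64 on log2 TPM with pseudocounts of 0.1 and 1, and 1 to 159 with 1 library left out. Without 14C, 18C or 2posI it was 1, without 29C 2 and without 23C 14.

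DESeq2 called 2 further chaperones, 2 genes of the calnexin cycle, 1 of the translocon, 4 of ER-associated degradation, 4 PERK targets, 5 sensor partners and 2 decay substrates. The translocon had 1 call with the effective-length offset. ER-associated degradation had 0 calls on log2 TPM, and 0 to 1 with 1 library left out. On log2 TPM, where the median of all genes was -0.13 at a pseudocount of 0.1, list medians were -0.12 and -0.12 (calnexin cycle, pseudocounts 0.1 and 1), -0.15 and -0.15 (degradation), -0.16 and -0.14 (PERK targets), -0.048 and -0.045 (eIF2) and -0.093 and -0.078 (sensor partners). The sensor partners had -0.036 with upper-quartile factors, -0.025 without the filter, 0.032 with the stricter filter, 0.021 with the offset and 0.076 with the length trend removed. With 1 library left out, medians ran from -0.065 to 0.037 for the calnexin cycle, -0.023 to 0.069 for the sensor partners and -0.97 to -0.34 for the decay substrates.

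Signs turned for Ern1 on log2 TPM (-0.12 and -0.054), for Xbp1 on log2 TPM (-0.071 and -0.070) and for Atf6 with the length trend removed (-0.036). They also turned without 3posI, within ranges over the libraries left out of -0.050 to 0.70 for Ern1, -0.097 to 0.19 for Xbp1, -0.50 to 0.14 for Sparc and -0.073 to 0.34 for Hgsnat. The causes were not tested. No paired analysis was possible because the labels give animal codes only. Low counts limit Ern1 most, with 193 to 623 counts per library.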
